A study of Mus musculus with 6 samples.

Results

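The VEGF ligands and receptors are a set of 9 genes, of which 4 encode ligands (Vegfa, Vegfb, Vegfc and Pgf), 3 encode receptor tyrosine kinases (Flt1, Kdr and Flt4) and 2 encode the neuropilin coreceptors (Nrp1 and Nrp2). All 9 were found by gene symbol among the 56980 genes of the deposited expression table. They were followed in tumor-associated macrophages (TAMs) of wild-type (WT) C57BL/6 mice and of mice of the same background that lack the complement C5a receptor (C5aR-/-), with 3 libraries in each group. Female mice, 6 to 8 weeks old, received ID8 cells, an epithelial ovarian cancer line of the mouse, into the peritoneal cavity, and both groups received the same tumor cells. The knockout is carried by the whole host rather than by macrophages alone. After 2 months, live CD45+CD11b+Ly6G-F4/80+ cells were sorted from the tumors, and their poly(A) RNA was sequenced. The labels do not say whether the libraries of a group came from separate mice, and the number of mice per group that the study gives for this sequencing is not the number of libraries, so the link from mice to libraries is unknown. Hence each p-value measures the spread between libraries, which may be technical.

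VEGF-A is the main growth and survival factor of blood vessel endothelium and also attracts monocytes, and hypoxia raises its transcription. VEGF-A signals through VEGFR2 (Kdr), whereas VEGFR1 (Flt1) binds VEGF-A, VEGF-B and PlGF (Pgf) and is present on monocytes and macrophages. VEGF-C binds VEGFR3 (Flt4), the receptor that drives growth of lymphatic vessels. Neuropilins bind VEGF family members and class 3 semaphorins, for which they form receptors together with plexins. In tumors, macrophages are a known source of VEGF-A.

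Values are TPM, transcript abundances scaled to transcript length and to the library total, so levels of different genes can be compared within a library. TPM keeps no sequencing depth, and errors here come from the spread among libraries alone. C5ar1, the deleted gene, had a TPM of 86.5, 37.3 and 16.2 in WT TAM 1, 2 and 3 and of 0.38, 0.11 and 0.05 in C5aR-/- TAM 1, 2 and 3. The 10 macrophage markers were detected in every library, but their summed TPM ranged from 2450 to 8770 in WT and from 2370 to 8590 in C5aR-/- TAMs. The 8 genes listed as epithelial markers had a summed TPM from 1880 to 2080 in WT and from 1810 to 2310 in C5aR-/- TAMs. Most of it was Krt8, Krt18 and Krt19. Over the 6 libraries, Cldn3 was at 38.45 to 138, Epcam at 2.09 to 6.33 and Cdh1 at 4.16 to 5.56. The sum alone therefore does not identify the cells that the RNA came from. In such sorted pools, fewer cells of a type and less RNA per cell cannot be told apart.

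The ligand genes Vegfa and Vegfc were higher in C5aR-/- TAMs, and the groups overlapped for the remaining members. Of the 9 members, 8 reached a TPM of 1 or more in 3 or more libraries and were tested with limma on log2(TPM + 1), among 14776 genes in all. With an unadjusted p below 0.05 and a change of 2-fold or more as the threshold, 2 of the 8 were called, both higher in C5aR-/- TAMs, where 4.96% of all tested genes were called in either direction and 2.13% as higher. The libraries of the groups did not overlap for the same 2 members, against 21.3% of all tested genes in either direction and 8.84% as higher. Vegfc, which is among these 2, met the filter only because it was high in C5aR-/- TAMs. Its call and its lack of overlap are therefore not separate support for a difference. After Benjamini-Hochberg adjustment over all genes, 0 members passed, with adjusted p from 0.239 to 0.974 (limma), and 0 genes passed in the whole table, where the smallest adjusted p was 0.0666 and 2133 genes had an unadjusted p under 0.05.

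**Figure D1:**
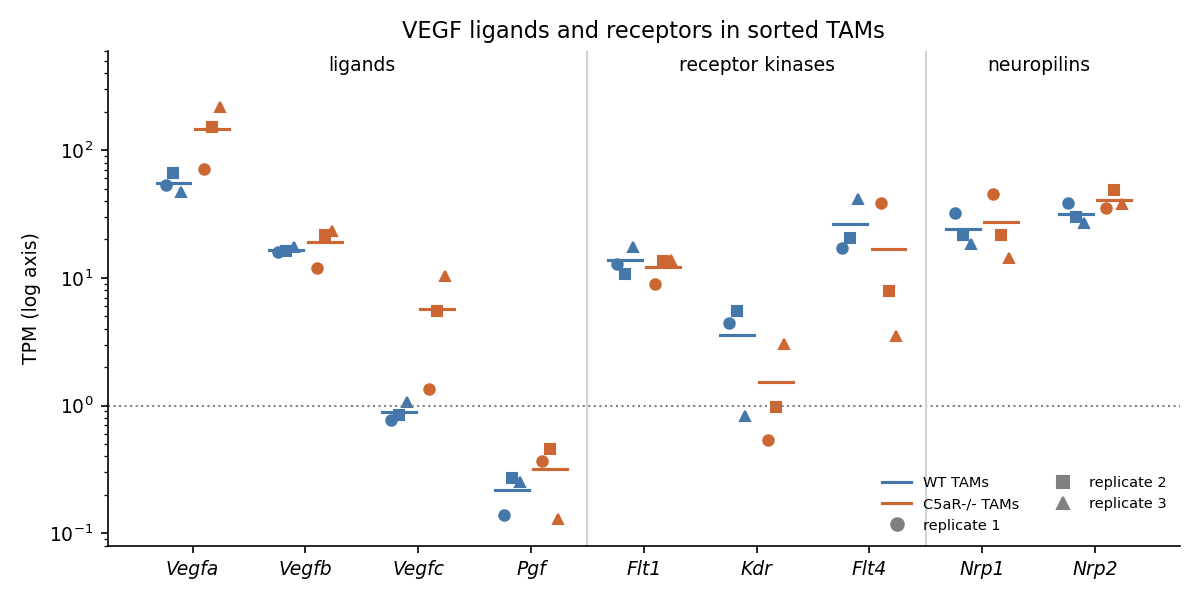
TPM of the 9 members on a log axis in each of the 6 libraries. Symbols mark the replicate number, horizontal bars the group mean, and the dotted line a TPM of 1. Vegfa and Vegfc are the members whose C5aR-/- libraries all lie above the WT libraries, and Pgf stays under a TPM of 1 throughout.

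Vegfa lies on the minus strand of chromosome 17, from 46016993 to 46032369 in GRCm38, the build called mm10 in the submitters' processing notes. Its TPM was 52.9, 65.7 and 47.1 in WT TAMs and 70.7, 152 and 217 in C5aR-/- TAMs. All 3 C5aR-/- libraries were above the highest WT library, C5aR-/- TAM 1 only narrowly so. The group means were 55.3 ± 9.52 (SD, n = 3) and 147 ± 73.3 (SD, n = 3), which is 2.65 times as high in C5aR-/- TAMs. The difference in log2(TPM + 1) was 1.26 with a standard error of 0.40 (limma, 95% interval 0.32 to 2.21, unadjusted p = 0.016, adjusted p = 0.239). On TPM, the two-sided exact permutation test gave p = 0.1, the smallest that 3 libraries against 3 allow.

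Vegfc lies on the plus strand of chromosome 8, from 54077606 to 54187096. It was near the detection filter in WT TAMs, at a TPM of 0.77, 0.85 and 1.06, and reached 1.35, 5.51 and 10.3 in C5aR-/- TAMs. The increase was again small in C5aR-/- TAM 1 and large in the other 2 libraries. The WT mean was 0.893 ± 0.15 (SD, n = 3) and the C5aR-/- mean 5.73 ± 4.50 (SD, n = 3). The difference in log2(TPM + 1) was 1.56 with a standard error of 0.55 (limma, 95% interval 0.24 to 2.88, unadjusted p = 0.0266, adjusted p = 0.286). Vegfc passed the filter on low TPM with 4 libraries, 3 of them C5aR-/-, so it could be tested only because it was high in that group. The scale of log2(TPM + 1) understates the change of such a low gene.

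The bases just upstream of Vegfa, Vegfc and Vegfb are shown here to set their promoters side by side. Vegfa and Vegfc were called at the unadjusted threshold only, and Vegfb was not called. Each run covers 250 bases before the most upstream RefSeq start of the gene (GRCm38.p6), read along the gene's strand, and overlaps no annotated exon. Capitals mark the letters of the motifs that were searched. For Vegfa the run is chr17:46032378-46032627 on the minus strand, for Vegfc chr8:54077282-54077531 on the plus strand, and for Vegfb chr19:6987652-6987901 on the minus strand.
Vegfa: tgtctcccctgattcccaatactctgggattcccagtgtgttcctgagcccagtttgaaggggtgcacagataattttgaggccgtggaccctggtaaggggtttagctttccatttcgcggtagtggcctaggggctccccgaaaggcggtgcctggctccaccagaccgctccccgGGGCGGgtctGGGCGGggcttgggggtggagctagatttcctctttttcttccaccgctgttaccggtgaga
Vegfc: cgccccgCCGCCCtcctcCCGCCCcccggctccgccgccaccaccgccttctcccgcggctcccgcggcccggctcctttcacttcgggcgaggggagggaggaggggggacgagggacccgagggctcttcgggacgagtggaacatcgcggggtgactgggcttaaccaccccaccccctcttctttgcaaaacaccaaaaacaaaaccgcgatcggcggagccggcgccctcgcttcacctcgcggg
Vegfb: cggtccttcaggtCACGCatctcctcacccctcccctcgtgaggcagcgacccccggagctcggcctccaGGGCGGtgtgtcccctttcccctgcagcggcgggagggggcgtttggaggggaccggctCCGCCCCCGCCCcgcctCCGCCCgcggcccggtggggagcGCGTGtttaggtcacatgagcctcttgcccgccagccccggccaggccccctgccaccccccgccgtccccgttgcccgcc

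The Vegfa run held 2 GC boxes (GGGCGG, the binding letters of Sp1), from -72 to -67 and from -62 to -57 before the start. The Vegfc run also held 2, both on the opposite strand near its far end, and the Vegfb run held 4, among which 2 lie next to each other without overlap. Only 5 of the 9 members' windows were free of annotated exons, and those of Pgf, Kdr, Flt4 and Nrp2 overlapped some. With a match on either strand counted, a GC box stood in all 9 windows, against 33.0% of 27025 gene windows of the same length. The 9 windows were 59.2% to 76.4% G and C, and the gene windows were not matched for this content. The letters ACGTG, a core of the hypoxia response element, were in 0 of the 9 windows (16.5% of all promoters), and the alternative core GCGTG was in 6 (28.3% of all promoters), Vegfb included and Vegfa and Vegfc not. The TATA box (TATAAA, 13.0% of all promoters) and the cAMP response element (TGACGTCA, 1.6%) were each found in 1 window, that of Flt1 in both cases. The AP-1 site TGACTCA was in 0 windows, against 4.43% of all promoters. In the Nrp2 window, 2 of its 5 GC boxes share a base, and no match of one motif overlapped a match of another. A match describes letters and not a bound site. Only the 250 bases before the start were searched, so an absent motif says nothing about sequence farther upstream.

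Vegfb, the VEGFR1 ligand on chromosome 19 (minus strand, 6982473 to 6987651), had a TPM of 16.0, 16.1 and 17.3 in WT and of 12.1, 21.5 and 23.2 in C5aR-/- TAMs. Its WT libraries were the most uniform of any member relative to their mean, at 16.5 ± 0.734 (SD, n = 3), and the C5aR-/- libraries lay on both sides of them. The difference in log2(TPM + 1) was 0.14 (95% interval -0.47 to 0.75). Pgf, which encodes PlGF (chromosome 12, minus strand, 85166635 to 85177790), was under a TPM of 1 in all 6 libraries, with 0.14, 0.27 and 0.25 in WT and 0.37, 0.46 and 0.13 in C5aR-/- TAMs. It was not tested, and its groups overlapped.

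Within the ligands, Vegfa held the largest share in every library. It made up 75.8%, 79.3% and 71.7% of the summed ligand TPM in WT and 83.7%, 84.7% and 86.6% in C5aR-/- TAMs. The mean shares were 75.6% ± 3.8 (SD, n = 3) and 85.0% ± 1.45 (SD, n = 3), and the shares of the groups did not overlap (exact permutation p = 0.1, the smallest possible). This ratio does not depend on the library total. In C5aR-/- TAM 1 it also reflects Vegfb, which at 12.1 was the lowest of the 6 libraries, as does the ratio of Vegfa to Vegfb. The log2 ratio of Vegfa to Vegfb, with 1 added to each TPM, was 1.66, 1.97 and 1.39 in WT and 2.46, 2.77 and 3.17 in C5aR-/- TAMs (exact permutation p = 0.1). The summed TPM of the 4 ligands was 69.8, 82.9 and 65.8 in WT TAMs and 84.5, 180 and 251 in C5aR-/- TAMs.

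**Figure D2:**
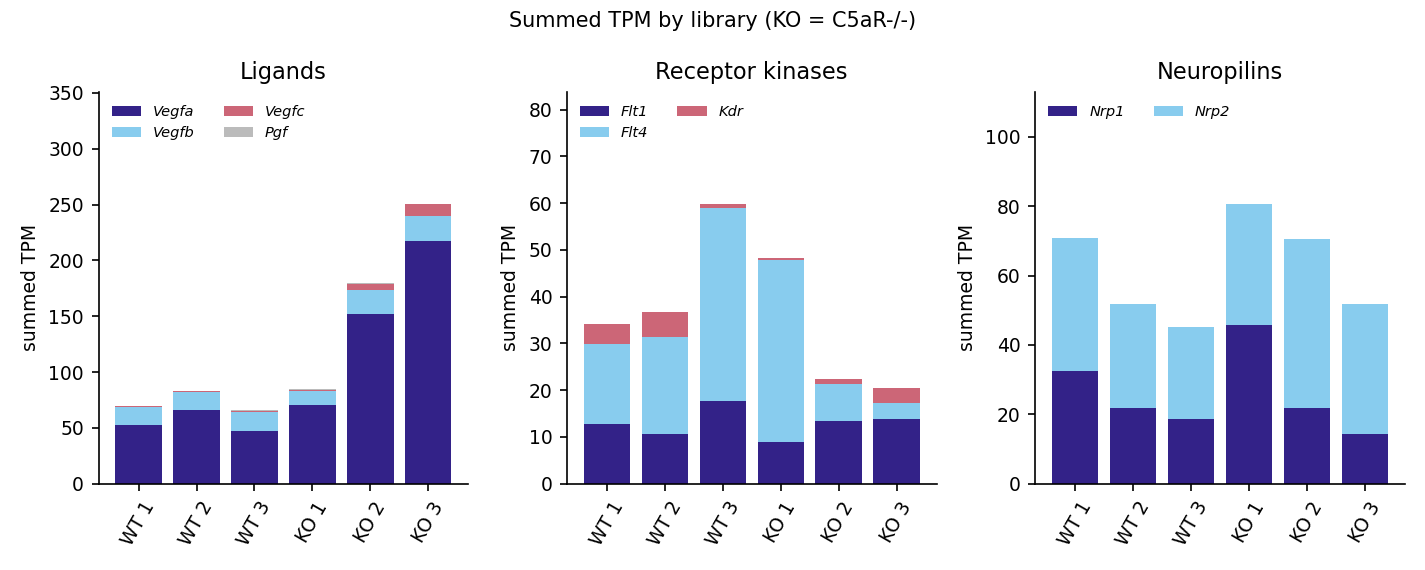
Summed TPM of the ligands, of the receptor kinases and of the neuropilins in each library, stacked by gene (KO stands for C5aR-/-). The ligand bars of KO 2 and KO 3, at 180 and 251, are mostly Vegfa, while the receptor kinase bars of the same libraries are the lowest of the 6, at 22.3 and 20.4.

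Among the receptor kinases, no member was called, at the unadjusted or the adjusted threshold. Flt1 (chromosome 5, minus strand, 147561604 to 147726011) was the steadiest, with a TPM of 12.8, 10.7 and 17.6 in WT and of 8.99, 13.4 and 13.8 in C5aR-/- TAMs. Its groups overlapped and its difference in log2(TPM + 1) was -0.16 (95% interval -0.76 to 0.44), so that a change of more than 2-fold in either direction was outside the interval. The gene encodes a membrane receptor and a soluble form that traps VEGF-A, and the gene-level values do not separate them.

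Flt4, the receptor for VEGF-C (chromosome 11, plus strand, 49609263 to 49652739), was the receptor kinase that varied most between libraries. Its TPM was 17.02, 20.6 and 41.4 in WT and 38.8, 7.90 and 3.53 in C5aR-/- TAMs. C5aR-/- TAM 1 stood with the highest WT library, whereas the other 2 C5aR-/- libraries were below all WT libraries. The difference in log2(TPM + 1) was -1.12 with a standard error of 0.78 (limma, 95% interval -2.99 to 0.75, unadjusted p = 0.197, adjusted p = 0.556). Flt4 held 49.8%, 56.0% and 69.2% of the summed receptor kinase TPM in WT and 80.3%, 35.4% and 17.3% in C5aR-/- TAMs, and the groups overlapped (exact permutation p = 0.5).

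Kdr, the main signaling receptor for VEGF-A (chromosome 5, minus strand, 75932827 to 75978458), was the lowest receptor kinase in every library, at a TPM of 4.42, 5.49 and 0.83 in WT and of 0.54, 0.98 and 3.03 in C5aR-/- TAMs. WT TAM 3 fell among the C5aR-/- libraries and C5aR-/- TAM 3 stood between the WT libraries. Its difference in log2(TPM + 1) was -0.80 (95% interval -2.18 to 0.59), too wide to separate a 4-fold decrease from a small increase. Flt1 exceeded Kdr in all 6 libraries, by 0.85 to 3.34 on the log2 scale with 1 added to each TPM.

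Kdr, Flt1 and Flt4 are best known from endothelium, so endothelial markers were examined beside them. Of 14 vascular endothelial markers, 7 were under a TPM of 1 in all 6 libraries: Cdh5 (VE-cadherin), Cldn5, Emcn, Egfl7, Erg, Sox17 and Mmrn2, with 0.46 as their highest value and with Cldn5 and Sox17 at 0 throughout. The other 7 were detected: Esam at 62.8 to 125, Pecam1 (CD31) at 6.84 to 12.5, Robo4 at 4.66 to 11.8, Sox18 at 1.81 to 4.01, Plvap at 0.46 to 8.28, Ptprb at 0.08 to 3.63 and Vwf at 0.49 to 2.43. Prox1, the regulator of lymphatic endothelial identity, did not exceed 0.04 in any library. The summed TPM of the 14 markers was 120 to 152 in WT and 89.5 to 122 in C5aR-/- TAMs, most of it Esam. Of the 7 tested markers 1 was called, Plvap, which was higher in C5aR-/- TAMs (limma, unadjusted p = 0.0497, adjusted p = 0.345). The groups overlapped for Plvap. Robo4 was below WT in every C5aR-/- library without reaching 2-fold (difference -0.73, limma, unadjusted p = 0.0151, adjusted p = 0.234). The 6 lymphatic markers summed to 169 to 277 in WT and 156 to 216 in C5aR-/- TAMs, nearly all of it Pdpn and Lyve1, and 0 of the 2 tested were called. Over all tested genes, 4.96% were called in either direction. The list was thus split, and the part of endothelial cells in the values of Kdr, Flt1 and Flt4 was not tested.

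Nrp1 (chromosome 8, plus strand, 128358604 to 128503363) and Nrp2 (chromosome 1, plus strand, 62703285 to 62818695) were both well expressed. Nrp1 had a TPM of 32.4, 21.8 and 18.6 in WT and of 45.7, 21.8 and 14.2 in C5aR-/- TAMs. In both groups it was highest in the library numbered 1, which also held the highest sum of macrophage markers (8770 in WT TAM 1 and 8590 in C5aR-/- TAM 1), and whether these are linked was not tested. The difference between the groups was 0.04 in log2(TPM + 1), with a 95% interval of -0.97 to 1.05.

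Nrp2 had a TPM of 38.5, 30.1 and 26.7 in WT and of 35.0, 48.9 and 37.5 in C5aR-/- TAMs. Only WT TAM 1 reached into the range of the C5aR-/- libraries. The difference in log2(TPM + 1) was 0.34 with a standard error of 0.20 (limma, 95% interval -0.13 to 0.81, adjusted p = 0.477). Nrp2 exceeded Nrp1 in 5 of 6 libraries. The log2 ratio of Nrp2 to Nrp1 was 0.24, 0.45 and 0.50 in WT and -0.37, 1.13 and 1.34 in C5aR-/- TAMs, so the C5aR-/- libraries lay on both sides of WT (exact permutation p = 0.5).

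In order of mean TPM, WT TAMs had Vegfa (55.3), Nrp2 (31.8), Flt4 (26.4), Nrp1 (24.2), Vegfb (16.5), Flt1 (13.7), Kdr (3.58), Vegfc (0.893) and Pgf (0.22). The ranges of neighbors in this order overlapped for Nrp2 and Flt4, Flt4 and Nrp1, Vegfb and Flt1, and Kdr and Vegfc, and were apart for the other 4 pairs. In C5aR-/- TAMs the order was Vegfa (147), Nrp2 (40.5), Nrp1 (27.2), Vegfb (18.9), Flt4 (16.7), Flt1 (12.1), Vegfc (5.73), Kdr (1.52) and Pgf (0.32). Here only Vegfa and Nrp2, and Kdr and Pgf, had ranges that did not overlap. Vegfc exceeded Kdr in all 3 C5aR-/- libraries, whereas Kdr exceeded Vegfc in 2 of 3 WT libraries.

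**Figure D3:**
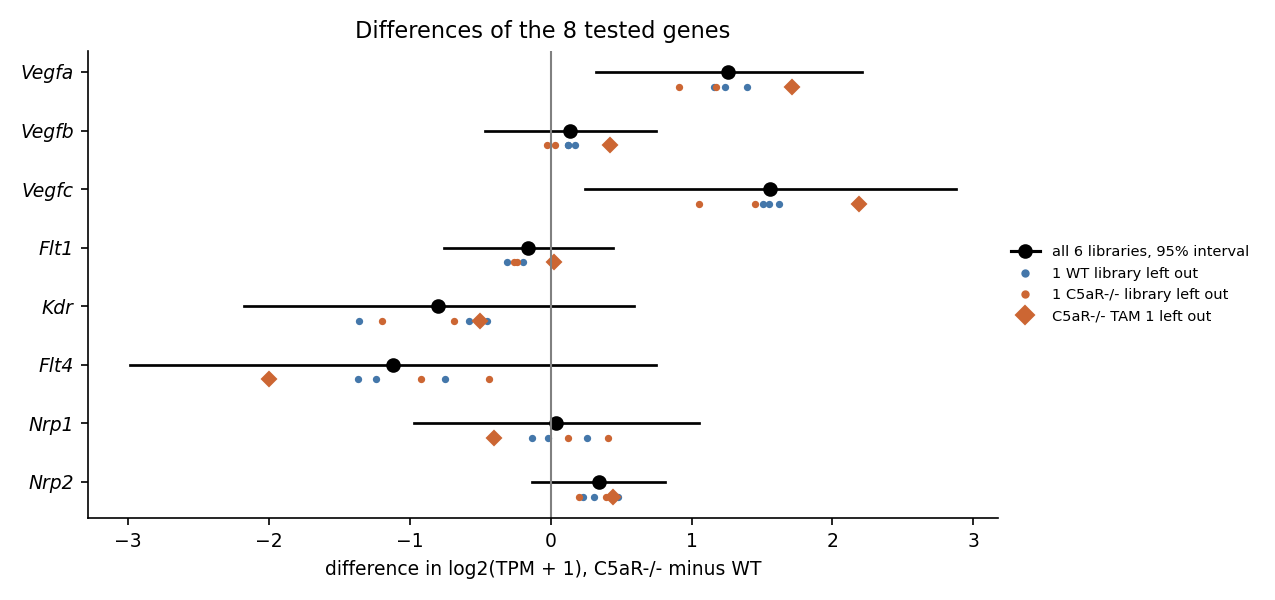
Difference in log2(TPM + 1), C5aR-/- minus WT, of the 8 tested members with all 6 libraries (black, with 95% interval) and with 1 library left out (colored points below). The intervals of Vegfa (0.32 to 2.21) and Vegfc (0.24 to 2.88) lie above 0. Leaving out C5aR-/- TAM 1 (diamonds) moved Vegfa to 1.71, Vegfc to 2.19 and Flt4 to -2.00.

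C5aR-/- TAM 1 stood closer to the WT libraries than the other 2 C5aR-/- libraries for Vegfa, Vegfc and Flt4. Its deviation from the WT mean of log2(TPM + 1) was 0.36 for Vegfa, against 1.46 and 1.97 in C5aR-/- TAM 2 and 3. For Vegfc the deviations were 0.31, 1.78 and 2.59, and for Flt4 0.64, -1.52 and -2.49. Without C5aR-/- TAM 1, 3 members were called at the unadjusted threshold, where 8.57% of all genes were called: Vegfa (1.71, adjusted p = 0.0229, limma), Vegfc (2.19, adjusted p = 0.0283) and Flt4 (-2.00, adjusted p = 0.0788). The first 2 also passed after adjustment, where 2.41% of all genes did. Leaving out the C5aR-/- library nearest to WT for these genes enlarges their differences by construction, so these passes are not separate support. The direction of Flt4 thus stayed negative, but its size rests on which C5aR-/- libraries are counted. Conversely, without C5aR-/- TAM 3 the Vegfa difference was 0.91 (limma, unadjusted p = 0.0378, adjusted p = 0.375) and the Vegfc difference 1.05 (unadjusted p = 0.0664, adjusted p = 0.437), and neither was called. Vegfa was also not called without WT TAM 3 (1.16) or C5aR-/- TAM 2 (1.17), and Vegfc was not called after any single library other than C5aR-/- TAM 1 had been left out.

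Markers of other cell types also differed between the groups in the same libraries. Calls here are at the unadjusted threshold, at which 4.96% of all tested genes were called in either direction. Of the 14776 genes, 314 were called as higher and 419 as lower, and 0 passed after adjustment. Of the 8 mesothelial markers, 7 had a negative difference and 4 were called as lower (Upk3b, Upk1b, Lrrn4 and Cldn15), with a summed TPM of 1150 to 1550 in WT and 792 to 1110 in C5aR-/- TAMs. The markers did not move together, since Msln (mesothelin) was at 135 to 180 in WT and 268 to 288 in C5aR-/- TAMs (difference 0.88, limma, adjusted p = 0.0922) and Wt1 differed by -0.10. Of the 8 neutrophil and mast cell markers, 6 were called as lower and 1, Kit, as higher, with a summed TPM of 683 to 2170 in WT and 109 to 400 in C5aR-/- TAMs. Among these 6, Mcpt4 passed the filter with its 3 WT libraries, and Cpa3 and Tpsb2 each with 4 libraries, 3 of them WT. These genes could be tested only because they were high in WT. Of the 10 fibroblast and mural markers, 6 were tested and 1 was called, Col1a2, which was lower, and the sums overlapped (407 to 617 in WT, 452 to 559 in C5aR-/-). Within that list, Col1a1 had a TPM of 1.21, 43.3 and 236 in C5aR-/- TAM 1, 2 and 3, and of 3.52 to 10.8 in WT TAMs. Its C5aR-/- libraries were in the same order as for Vegfa and Vegfc. This order also held for Col1a2 (1.75, 2.31 and 2.46), Col3a1 (1.71, 11.65 and 27.2) and Pdgfra (4.44, 9.51 and 26.7). It did not hold for Acta2 (1.35, 12.5 and 7.41) and was reversed for Dcn, the most abundant (548, 372 and 180). Of the 6 tested genes, the groups were apart only for Col1a2. Of the 7 tested epithelial markers 1 was called, Cldn3, which was higher, and of the 10 macrophage markers 0 were called. Of the 4 tested markers of plasmacytoid dendritic cells 1 was called, Klk1, which was higher and passed the filter only through its 3 C5aR-/- libraries, and of the 4 tested markers of regulatory T cells 0 were called. In C5aR-/- TAM 1, 2 and 3 the macrophage sum was 8590, 4900 and 2370, the reverse of the order for Vegfa and Vegfc. In WT TAM 1, 2 and 3 it was 8770, 3540 and 2450, where Vegfc ran in reverse order too and Vegfa did not. The part of these cell types in the changes of Vegfa and Vegfc was not tested.

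**Figure D4:**
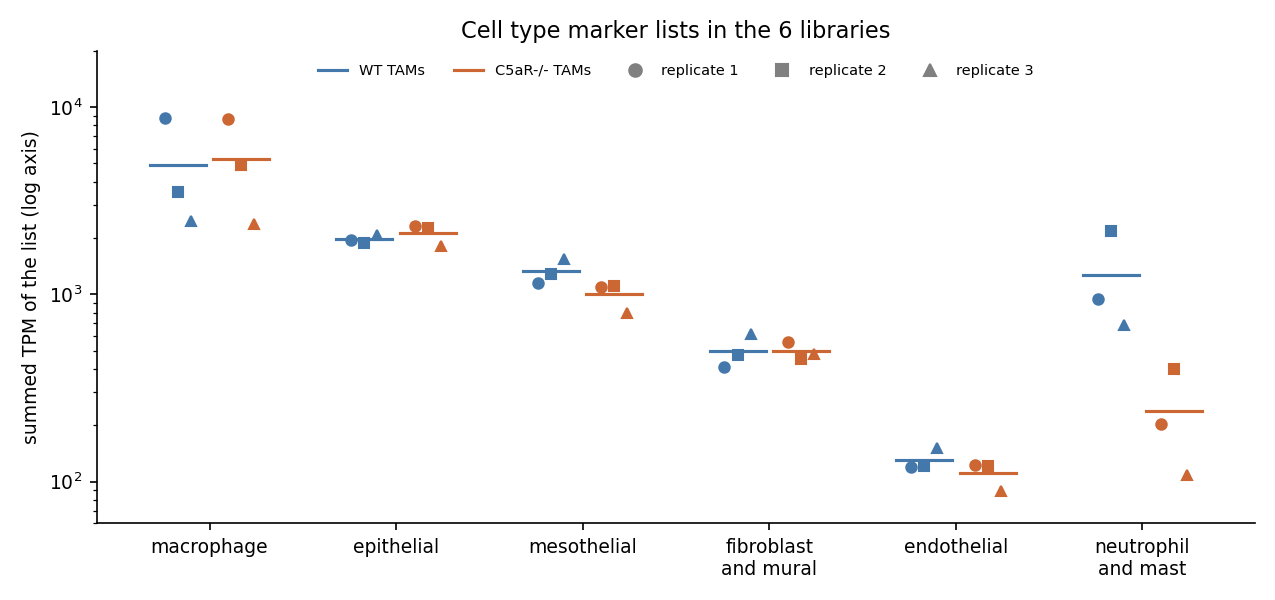
Summed TPM of 6 lists of cell type markers on a log axis in the 6 libraries, with symbols for the replicate number and bars for the group mean. The macrophage sums of the groups overlap (2450 to 8770 and 2370 to 8590), while the mesothelial and the neutrophil and mast cell sums of the C5aR-/- libraries lie below those of WT.

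The other genes of the VEGF pathway were examined in 4 lists of 92 genes in all, of which 85 were tested. At the unadjusted threshold, 3 of them were called as higher in C5aR-/- TAMs and 0 as lower, which is 3.53% against 4.96% of all genes. The groups did not overlap for 14 of the 85 (16.5%, against 21.3% of all genes). Thus the share of called genes was near that of the whole table.

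The first list held Vegfd, the semaphorin ligands of neuropilins, plexins and other coreceptors, with 16 of 17 genes tested and a median difference of 0.17 in log2(TPM + 1), against -0.048 over all genes. Gpc1, which encodes the heparan sulfate proteoglycan glypican-1, was its 1 called gene. Its TPM was 48.3, 45.1 and 56.2 in WT and 107, 124 and 116 in C5aR-/- TAMs, well apart and with little spread, for a difference of 1.20 with a standard error of 0.14 (limma, adjusted p = 0.0666). In C5aR-/- TAM 1, the lowest C5aR-/- library for Gpc1 as for Vegfa and Vegfc, its TPM was still well above the WT libraries.

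Of the 7 class 3 semaphorins, 6 were tested and 0 were called. Sema3c was the most abundant, with a mean WT TPM of 96.0 ± 9.77 (SD, n = 3) against 96.6 ± 19.4 (SD, n = 3) for C5aR-/- TAMs, followed by Sema3f at 40.8 ± 13.2 (SD, n = 3) against 41.8 ± 11.9 (SD, n = 3). For these 2 the group means were nearly equal. Sema3a, which repels axons and endothelial cells through Nrp1, had a TPM of 14.4, 11.1 and 12.4 in WT and of 12.1, 2.63 and 6.41 in C5aR-/- TAMs, a difference of -0.94 (95% interval -2.01 to 0.13). Its groups overlapped through C5aR-/- TAM 1. The differences of Sema3b (0.25), Sema3d (0.23) and Sema3e (0.49) had intervals that included 0. Sema3g was under the filter, at 0.06 to 0.18 in WT and 0.30 to 1.52 in C5aR-/- TAMs. Vegfd, a further ligand of VEGFR3, stayed low at 0.91 to 1.97 in WT and 0.79 to 1.5 in C5aR-/- TAMs, and was not called.

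Among the plexins, Plxna4 had a TPM of 43.2, 48.3 and 43.2 in WT and of 29.8, 32.2 and 17.1 in C5aR-/- TAMs. The groups did not overlap, but the difference of -0.79 (limma, unadjusted p = 0.0154, adjusted p = 0.235) was short of 2-fold. For Plxna1, a partner of neuropilins in semaphorin signaling, the TPM was 32.3, 45.7 and 37.1 in WT and 45.7, 43.8 and 45.7 in C5aR-/- TAMs, and for Plxnd1, a further semaphorin receptor, 16.3, 23.7 and 36.7 in WT and 27.8, 29.6 and 22.6 in C5aR-/- TAMs. Their groups overlapped, with differences of 0.24 (95% interval -0.13 to 0.61) and 0.12 (95% interval -0.58 to 0.82). Plxna4, Vegfd, Sema3g and, among the genes described elsewhere here, Col1a1, Angpt1, Angpt2, Tie1 and the markers of cell types were named after their values were seen.

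**Figure D5:**
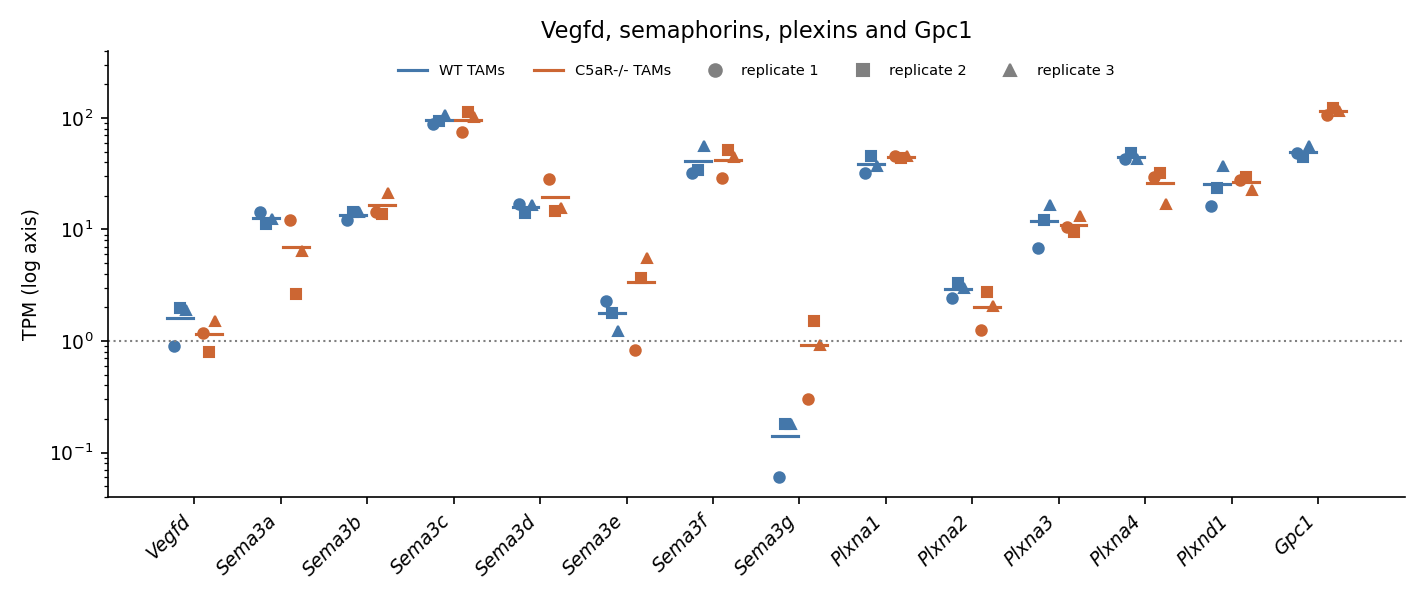
TPM of Vegfd, the 7 class 3 semaphorins, 5 plexins and Gpc1 in the 6 libraries, on a log axis with bars for the group mean and a dotted line at a TPM of 1. The Gpc1 libraries of C5aR-/- TAMs (107 to 124) lie above those of WT (45.1 to 56.2), and Sema3c is the most abundant semaphorin in both groups.

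Of 44 genes of signal transduction downstream of VEGF receptors, 43 were tested. Their differences were positive in 23 and negative in 20, with a median of 0.04. The 1 called gene was Shc2, an adaptor of receptor tyrosine kinases, with a TPM of 0.89, 1.05 and 3.83 in WT and of 9.42, 5.38 and 8.70 in C5aR-/- TAMs (difference 1.70, standard error 0.42, limma, adjusted p = 0.168). All C5aR-/- libraries were above the highest WT library.

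The 13 regulators of Vegfa transcription and mRNA stability were all tested, with a median difference of -0.03 and 0 called. Hif1a, the oxygen-sensitive factor that drives Vegfa transcription, had a TPM of 84.8, 80.8 and 71.0 in WT and of 68.9, 81.2 and 80.3 in C5aR-/- TAMs, a difference of -0.04 (95% interval -0.35 to 0.28). Its mRNA level does not report the level of its protein, which is set by oxygen-dependent degradation. Epas1, which encodes HIF-2α, had a TPM of 21.0, 21.1 and 25.2 in WT and of 23.6, 11.3 and 6.09 in C5aR-/- TAMs (difference -0.85, 95% interval -1.87 to 0.17). It was lowest in the 2 libraries in which Vegfa was highest.

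Of 18 other secreted factors and receptors of vessel growth, 13 were tested, with a median difference of 0.28. Pdgfb, which encodes the PDGF-B chain that recruits pericytes, was the 1 called gene. Its TPM was 28.6, 15.7 and 19.5 in WT and 43.5, 47.5 and 76.9 in C5aR-/- TAMs, and the groups did not overlap (difference 1.35, standard error 0.29, limma, adjusted p = 0.14). The angiopoietins Angpt1 and Angpt2 and the receptor Tie1 were under a TPM of 1 in all libraries.

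The genes most like Vegfa across the 6 libraries, by Pearson's r of log2(TPM + 1), were Slc6a9 (0.997), Tpt1 (0.991) and Ppfibp1 (0.991). For Vegfc they were Hook2 (0.997), Asf1b (0.997) and Epn2 (0.996), and for Nrp2 Hectd2 (0.975), Rap1gap2 (0.971) and Slc38a7 (0.964). These are the highest of 14776 genes over only 6 libraries, which share their groups, and they are given as a description. Hook2 had a TPM of 9.37, 9.14 and 12.1 in WT and of 13.1, 58.7 and 99.98 in C5aR-/- TAMs. Hook2 (84990603 to 85003349) and Asf1b (83955507 to 83970197) lie near each other on chromosome 8, the chromosome of Vegfc, but far from Vegfc. For Asf1b the TPM was 13.2, 13.1 and 13.8 in WT and 14.7, 33.5 and 44.6 in C5aR-/- TAMs. Whether the genes around Hook2 and Asf1b share this pattern was not tested. Of the 10 tested protein-coding genes nearest to Vegfc, 5 on each side, the difference was positive in 4 and negative in 6, with a median of -0.03 and a range from -0.85 to 1.08. These neighbors were chosen after the genes most like Vegfc had been seen.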

How the data were processed

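RNA of sorted TAMs was measured in 6 libraries, 3 WT and 3 C5aR-/-, grouped by their titles. The authors used fastp for trimming, HISAT2 for alignment and StringTie for assembly and quantification, and the deposited values are TPM per gene. The submitters' processing notes also name RSEM and the build mm10. Versions and the annotation release are not given in the sources used here. Columns with the authors' group means were left out. The tests named in the methods need read counts, so TPM was tested on a log scale instead.

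Symbols and coordinates came from GENCODE M21 (GRCm38), with 52073 of 56980 gene IDs matched, and promoter sequences from RefSeq (GRCm38.p6), with 9 of 9 members matched. Values were used as log2(TPM + 1). The 14776 genes that reached a TPM of 1 in 3 or more libraries were tested with limma 3.58.1 in R 4.3.3 (lmFit, eBayes with trend, Benjamini-Hochberg adjustment over all tested genes), which was checked on simulated data. Calls required a 2-fold or larger change together with p below 0.05, either unadjusted or adjusted. Ratios and TPM were compared with two-sided exact permutation tests. For a symbol with several IDs, the most abundant was taken. Python 3.11.15, pandas 2.3.3 and numpy 2.4.6 were used.

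Named genes are C5ar1, the 9 members, called genes of the 4 pathway lists, Hif1a, Epas1, Plxna1, Plxnd1, the tested semaphorins, and the 3 genes most like each of the 3 members with the smallest p, leaving out Gm and Rik names. Cell type markers and a few other genes are named outside this rule, after their values were seen. The members and lists were chosen with earlier results of these data known. The alternatives tried were the replicate number as a block, eBayes without trend, scaling by median of ratios or by quantiles, 0.1 as pseudocount, a filter at a TPM of 5 or none, and each library left out in turn.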

Additional observations from a re-analysis of the deposited data

How the results depend on the processing

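Under pseudocount, filter, scaling, block and eBayes alternatives, the 8 tested members kept their direction, and Vegfa and Vegfc stayed called wherever they were tested. With a TPM of at least 5, Vegfc and Kdr were not tested, 1 member was called in place of 2, and 475 genes in place of 733, since fewer genes were tested. With eBayes without trend, 2 genes passed the adjusted threshold in place of 0. Higher calls numbered 314 and lower calls 419, which became 386 and 371 under quantile normalization.

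With 1 library left out, the difference in log2(TPM + 1) was from 0.91 to 1.71 for Vegfa, not called without WT TAM 3 (1.16), C5aR-/- TAM 2 (1.17) or C5aR-/- TAM 3 (0.91), and from 1.05 to 2.19 for Vegfc, called only without C5aR-/- TAM 1. Kdr was from -1.36 to -0.45, called without WT TAM 3, and Flt4 from -2.00 to -0.44, called without C5aR-/- TAM 1. Ranges crossed 0 for Vegfb (-0.03 to 0.42, negative without C5aR-/- TAM 3), Flt1 (-0.31 to 0.02, above 0 if either WT TAM 3 or C5aR-/- TAM 1 was left out), Nrp1 (-0.40 to 0.41, negative without WT TAM 2, at -0.02, WT TAM 3, at -0.13, and C5aR-/- TAM 1) and the log2 ratio of Nrp2 to Nrp1 (-0.0197 to 0.838, negative without C5aR-/- TAM 3). From 0 to 3 members were called at the unadjusted and from 0 to 2 at the adjusted threshold, from 3 to 10 pathway genes, and from 567 to 1266 genes at the unadjusted and from 0 to 356 at the adjusted threshold, each highest without C5aR-/- TAM 1. The cause was not tested. The adjusted p over all alternatives was from 0.0229 to 0.607 for Vegfa and from 0.0283 to 0.681 for Vegfc (limma).

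Whether the replicate numbers pair the libraries is unknown. The deviations of same-numbered libraries correlated at 0.186, -0.0112 and 0.272 across genes, and 4 of 6 libraries correlated best with their own number. The summed macrophage markers fell in the order of the numbers in both groups, from 8770 to 3540 and 2450 in WT and from 8590 to 4900 and 2370 in C5aR-/- TAMs. A source shared by same-numbered libraries was not tested. With the replicate block, 811 genes were called at the unadjusted threshold and the same 2 members. Depth is unknown, so its effect on low genes such as Vegfc, Kdr and Pgf was not tested.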
